A study of Mus musculus with 9 samples.

Results

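Genes of vascular smooth muscle cells and pericytes were followed in 9 RNA-seq libraries of the mouse heart, 3 each of a normal control (CK), a diabetic cardiomyopathy (DCM) and a spermine (SPM) group. The genes were taken by symbol and not by a rule on their values, though earlier results of these data were known. They were Acta2, Tagln, Myh11, Cnn1 and Myl9 of the contractile apparatus and Rgs5, Pdgfrb, Cspg4, Abcc9 and Kcnj8 of pericytes, and all 10 were found among the 22851 genes of the deposited counts. The mice were males of 6 to 8 weeks at the start, of the strain that the labels give as C57BL/6 and the methods as C57BL/6J. DCM mice received streptozotocin at 180 mg/kg, which destroys the insulin-producing beta cells, and were killed 12 weeks later. SPM mice received the same and, for 2 weeks before it and throughout the time after it, the polyamine spermine at 1 mg/kg. CK mice received citrate buffer. The methods speak of 3 mice per group in one place and of pools of 6 hearts in another, so the libraries may be single mice or pools, and p-values measure only the spread between libraries.

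Mural cells wrap the outside of blood vessels. Smooth muscle cells of arteries and arterioles carry actin and myosin isoforms of their own, which let them set the vessel diameter, and serum response factor with its co-factor myocardin switches on many of the contractile genes through a DNA element called the CArG box. Pericytes sit on capillaries, depend on PDGF-B from the endothelium through the receptor PDGFRB, and in the heart carry the vascular ATP-sensitive potassium (KATP) channel, built from the pore Kir6.1 (Kcnj8) and the sulphonylurea receptor SUR2 (Abcc9). In whole tissue, fewer mural cells and less RNA per mural cell cannot be told apart.

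Total counts lay between 29901300 and 39718680 per library, and mitochondrial genes took between 13.7% and 16.2% of them in the CK libraries, 15.5% and 18.9% in the DCM libraries and 21.01% and 21.09% in the SPM libraries. The tissue is labelled heart, whereas the extraction text of the labels speaks of retinas. The cardiomyocyte genes Mb (myoglobin) and Tnni3 (cardiac troponin I) had mean levels of 8063 and 4163 FPKM (fragments per kilobase of transcript, scaled to the library total), and none of the 10 mural genes was at 0 in a library. SPM replicate 2 lay between SPM replicates 1 and 3 for 70.05% of 10895 genes, and for 8 of the 10 mural genes. Mixing in silico 45.1% of the former and the rest of the latter described it to within counting noise (median ratio of squared deviation to noise 0.884), where the lowest such ratio among the other 251 combinations of libraries was 2.79. Its independence is in doubt, and for the SPM calls it is said how many were kept without it.

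The CArG box was looked for in promoter windows from RefSeq (GRCm38.p6, 250 bases before to 50 bases after the transcription start), because it is the element through which contractile genes are known to be switched on. Windows were at hand for 7 of the 10 genes, which left out Tagln, Myh11 and Pdgfrb. The search took the CArG box and runs that differ from it at 1 of its 6 central A/T positions. The pattern is its own reverse complement, so 1 strand covers both. Acta2 and Myl9 each had 2 matches, and these letters were not found in the windows of Cnn1, Rgs5, Cspg4, Abcc9 and Kcnj8. Capitals mark the match in the lines that follow, each printed 5′ to 3′ on the strand of the gene.
Acta2, 84 bases before the start, chr19:34255438-34255467, minus strand: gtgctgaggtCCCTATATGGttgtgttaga
Acta2, 34 bases before the start, chr19:34255388-34255417, minus strand: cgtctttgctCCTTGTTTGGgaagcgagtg
Myl9, stretch before the first exon, chr2:156775214-156775419, plus strand: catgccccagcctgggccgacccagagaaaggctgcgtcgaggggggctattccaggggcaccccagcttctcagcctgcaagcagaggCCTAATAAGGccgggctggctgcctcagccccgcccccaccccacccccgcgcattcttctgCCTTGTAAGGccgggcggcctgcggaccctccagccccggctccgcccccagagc

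The Myl9 box 161 bases before the start was the one exact CArG box in these 7 windows, and the other 3 matches differ from the pattern at 1 position. An exact box was in 1.63% of all 32851 windows, a box or near match in 9.98% and 2 or more of them in 0.822%. Both Acta2 matches lie within an exon that GENCODE M21 annotates for the gene, whereas the Myl9 matches lie outside its annotated exons. The matches describe the sequence and were not tied to binding.

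Per transcript length, Acta2 (smooth muscle alpha-actin, the thin filament protein) and Rgs5 (a brake on G-protein signalling and a classical pericyte marker) were the most abundant of the 10 genes, with mean levels of 113 and 109 FPKM over the 9 libraries. Myl9 (regulatory light chain of myosin) followed at 73.1, Abcc9 at 57.6, Kcnj8 at 30.04, Pdgfrb (PDGF receptor beta) at 25.7 and Myh11 (smooth muscle myosin heavy chain) at 20.7 FPKM. Cnn1 (calponin, which binds actin and slows the myosin ATPase) had 5.86 and Cspg4 (the proteoglycan NG2) 4.71 FPKM. The ranges over libraries did not overlap between Abcc9 and Kcnj8, between Myh11 and Cnn1 and between Cspg4 and Tagln, while every other pair of neighbours in this order overlapped.

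Tagln (transgelin, an actin-binding protein of smooth muscle) stood apart, with 0.282 FPKM on average and 10 to 21 counts per library, where Acta2 had 3724 to 13760 counts. In FPKM the ratio of Acta2 to Tagln lay between 276 and 725. Tagln lies at chr9:45929619-45936058 on the minus strand (GRCm38), and 62.4% of its 1988 exon bases are shared with Gm48529, an annotated gene on the opposite strand that is not analysed here. The kit named in the labels does not mark strand, so reads of these genes cannot be told apart, and whether that bears on the low count was not tested. The log2 fold change of Tagln in DCM compared to CK was 0.15 with a 95% interval from -0.95 to 1.25, so these data do not tell apart changes within that interval.

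**Figure D1:**
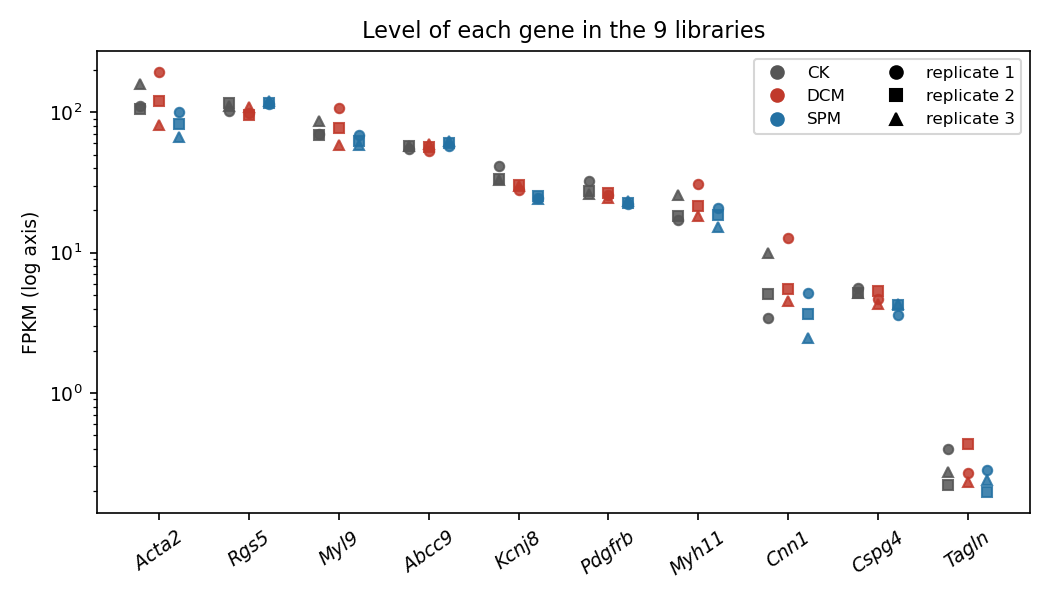
FPKM (log axis) of the 10 genes in each library, ordered by mean level, with colour for the group and symbol shape for the replicate number. Acta2 and Rgs5 lie highest, at means of 113 and 109 FPKM, and Tagln lies lowest at 0.282 FPKM.

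Groups were compared in pairs with edgeR's quasi-likelihood test on the counts. A gene is called a DEG here where its Benjamini-Hochberg adjusted p was under 0.05 and its fold change reached 1.5. In DCM compared to CK none of the 10 mural genes was a DEG, where 4.34% of all genes tested were, and none passed the adjusted p alone, where 10.4% did. At an unadjusted p below 0.05 there was 1 gene (Kcnj8), against 24.6% of all genes, and the libraries of 1 gene (Kcnj8, lower in DCM) did not overlap, against 29.3%. DESeq2 and limma on FPKM likewise called none. The 5 contractile genes had fitted values above 0 and 4 of the 5 pericyte genes had values below 0, with medians of 0.20 and -0.068 on the log2 scale beside -0.0025 for all genes.

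The contractile genes differed between libraries of the same group by more than most genes did. Normalized CPM (counts scaled to the library total and by TMM) of Acta2 were 187, 179 and 274 in CK, 346, 220.5 and 148 in DCM and 186, 149.8 and 121 in SPM, in the order of the replicate numbers. CK replicate 3 and DCM replicate 1 were high, SPM replicate 3 was low, and every pair of groups overlapped. Myh11 had 107, 114 and 165 in CK, 203, 145 and 122.9 in DCM and 141, 124 and 102 in SPM. Cnn1 showed the widest spread, at 7.75, 11.5 and 23.2 in CK, 30.4, 13.7 and 11.0 in DCM and 12.7, 8.97 and 6.02 in SPM. Myl9 had 75.2, 73.4 and 94.8 in CK, 121, 90.4 and 67.4 in DCM and 79.99, 71.9 and 67.04 in SPM. In Myh11, Cnn1 and Myl9 the highest library of CK, of DCM and of SPM was that of Acta2, and so was the lowest of all 9 libraries.

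The pooled within-group SD of log2 CPM was 0.44 for Acta2, 0.71 for Cnn1, 0.32 for Myh11 and 0.28 for Myl9. The median over the 9996 genes with a mean of at least 5 CPM was 0.11, and 0.82%, 0.27%, 3.03% and 4.92% of those genes had a larger SD than Acta2, Cnn1, Myh11 and Myl9, respectively. By contrast the SD was 0.077 for Rgs5 and Abcc9, 0.097 for Pdgfrb, 0.12 for Kcnj8 and 0.13 for Cspg4, near or under the median. These SDs are descriptions, with no test.

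The libraries that were high in Acta2 were also high in further smooth muscle genes. Of 17 other smooth muscle genes of the cytoskeleton and contraction, CK replicate 3 was the highest CK library in 14. DCM replicate 1 was the highest DCM library in 14 and the highest of all 9 libraries in 11. Among 15 other pericyte genes these numbers were 2, 2 and 0. Markers of other tissues of the heart moved with some of these libraries. All 4 mesothelial genes, of the layer covering the heart, were highest among CK in replicate 3 and highest among DCM in replicate 1. Their summed level spanned 47.8 to 87.8 CPM over the CK libraries, 35.2 to 78.5 over DCM and 30.01 to 80.7 over SPM, and none was at 0. In SPM the direction differed, since Msln (mesothelin) and Upk3b were highest in replicate 3, at 21.3 and 38.1 CPM, where Acta2 was lowest. Of 6 elastic fibre genes of large vessels and valves, DCM replicate 1 was the highest DCM library in 5 and CK replicate 3 the highest CK library in 3, and their summed level in DCM was 645, 629 and 548 CPM in the order of the replicate numbers. The summed level of the 6 atrial genes spanned 1128 to 1552 CPM over CK, 612 to 1127 over DCM and 1102 to 1771 over SPM, with none at 0. Nppa, Myl7, Myl4 and Sln had their lowest value of all libraries in DCM replicate 1. How often CK replicate 3 or DCM replicate 1 was highest over all genes was not counted, so these counts of library order have no background share beside them. The part of these tissues in the contractile values was not tested.

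**Figure D2:**
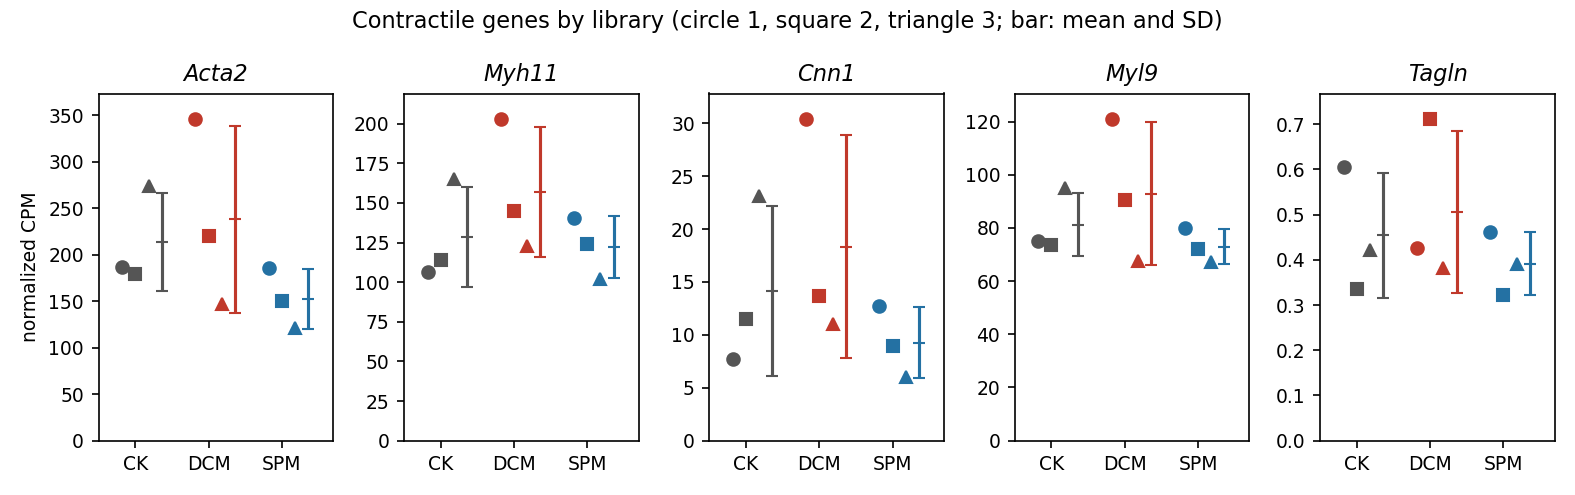
Normalized CPM of the 5 contractile genes in each library by group, with symbol shape for the replicate number and a bar for the group mean and SD (n = 3). In Acta2, Myh11, Cnn1 and Myl9 the highest library is DCM replicate 1 and the lowest is SPM replicate 3.

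The values of Acta2, Cnn1 and Myl9 in DCM compared to CK turned sign with DCM replicate 1 left out. The log2 fold changes were 0.16 ± 0.24 (SE) for Acta2, 0.29 ± 0.18 for Myh11, 0.39 ± 0.38 for Cnn1 and 0.20 ± 0.17 for Myl9, with edgeR adjusted p between 0.355 and 0.749. Without DCM replicate 1 the value of Acta2 was -0.21, that of Cnn1 -0.19 and that of Myl9 -0.033, while Myh11 stood at 0.068 and Tagln moved the other way, from 0.15 to 0.27. Without CK replicate 3 the values were 0.38 for Acta2, 0.51 for Myh11, 0.94 for Cnn1 and 0.32 for Myl9, with none past the adjusted p.

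Next, SPM was compared to DCM. None of the 10 genes was a DEG, where 3.59% of all genes tested were, and 1 gene (Kcnj8, lower in SPM) passed the adjusted p, where 16.6% passed in either direction and 7.76% as lower. DESeq2 called no DEG among them either, with 2 past its adjusted p (Rgs5 and Kcnj8), and limma called none, with 1 past the adjusted p. At an unadjusted p below 0.05 there were 6 of the 10 (Acta2, Cnn1, Rgs5, Pdgfrb, Cspg4 and Kcnj8), against 34.6% of all genes. The libraries did not overlap in 4 (Rgs5, Pdgfrb, Cspg4 and Kcnj8), against 39.2%, and without SPM replicate 2 also in 4, against 41.4%. The medians of the log2 fold change were -0.36 over the 5 contractile genes, -0.17 over the 5 pericyte genes and 0.0057 over all genes.

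Among the 10 genes, Cnn1 and Acta2 had the largest values of SPM compared to DCM. The log2 fold change of Cnn1 was -0.99 ± 0.36 (95% interval -1.78 to -0.20, edgeR adjusted p = 0.0788) and that of Acta2 was -0.65 ± 0.25 (-1.20 to -0.086, adjusted p = 0.0999). Myh11 stood at -0.36 ± 0.17 and Myl9 at -0.35 ± 0.17, with adjusted p of 0.152 and 0.167. None of the 4 passed the test. Without SPM replicate 2 the values were -0.97 for Cnn1, -0.63 for Acta2, -0.37 for Myh11 and -0.34 for Myl9, with adjusted p from 0.166 to 0.305. The calls turned on single libraries. Without DCM replicate 3 Acta2 was a DEG at -0.91 (adjusted p = 0.0396), and without SPM replicate 1 both Acta2 at -0.82 and Cnn1 at -1.30 were DEGs (adjusted p = 0.0425 and 0.0283). Without DCM replicate 1, on the other hand, Acta2 stood at -0.28, Cnn1 at -0.42, Myh11 at -0.14 and Myl9 at -0.12, with adjusted p from 0.323 to 0.566. With no filter on low counts Acta2 and Cnn1 were DEGs as well, at adjusted p of 0.0455 and 0.0314. With the replicate number as a block in the edgeR fit, Cnn1 was a DEG at -0.92 (adjusted p = 0.0019). Acta2 at -0.58, Myh11 at -0.34 and Myl9 at -0.31 passed its adjusted p (0.0039, 0.0116 and 0.0395). Of all genes 610 were DEGs in that fit, beside 521 in the main fit.

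None of the 10 genes was a DEG in SPM compared to CK by edgeR, DESeq2 or limma, where 9.21% of all genes tested were by edgeR. Of the 10 genes, 4 passed the adjusted p of edgeR, where 27.4% of all genes did. Rgs5 rose, where 13.0% of all genes rose, and Pdgfrb, Cspg4 and Kcnj8 fell, where 14.3% fell. Without SPM replicate 2, 1 of the 4 (Kcnj8) passed. DESeq2 had 5 past its adjusted p, with Abcc9 in addition, and limma had 3. At an unadjusted p below 0.05 there were 6, against 40.9% of all genes. The libraries did not overlap in 5 of the 10 (higher in SPM for Rgs5 and Abcc9, lower for Pdgfrb, Cspg4 and Kcnj8), against 46.3% of all genes. Without SPM replicate 2 they did not overlap in 5 either, against 48.1%. In the contractile genes the log2 fold change was -0.49 ± 0.19 for Acta2 (adjusted p = 0.0793), -0.61 ± 0.39 for Cnn1 (-0.069 without CK replicate 3), -0.16 ± 0.11 for Myl9 and -0.078 ± 0.17 for Myh11. Without SPM replicate 1 Acta2 was a DEG at -0.66 (adjusted p = 0.0323), without CK replicate 3 it stood at -0.28 (adjusted p = 0.242), and without SPM replicate 2 at -0.48.

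**Figure D3:**
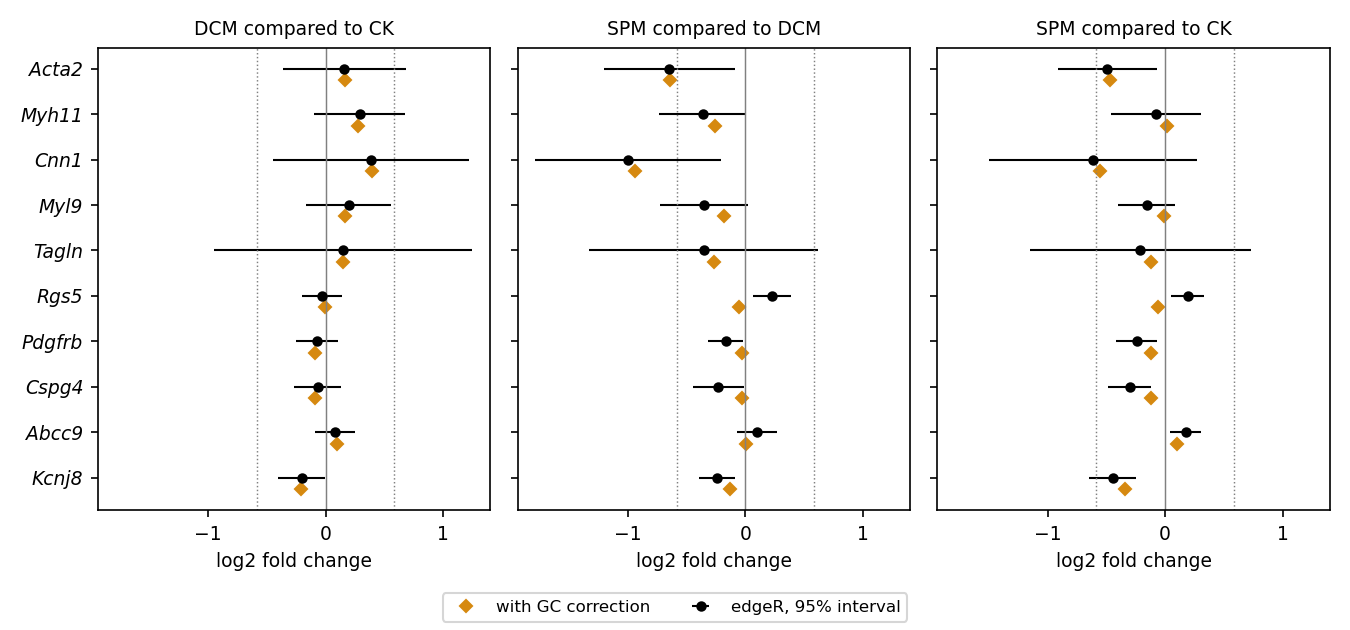
Log2 fold change of each gene in the 3 comparisons, with black points and bars for the edgeR estimate and its 95% interval and diamonds for the estimate after correction for GC content. Dotted lines mark a fold change of 1.5. The contractile genes have wide intervals, and Rgs5 moves from 0.23 to -0.051 in SPM compared to DCM under the correction.

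Kcnj8 was the one gene of the 10 whose libraries did not overlap in any of the 3 comparisons. Taken singly, 29.3% (DCM compared to CK), 39.2% (SPM compared to DCM) and 46.3% (SPM compared to CK) of all genes did not overlap. The share of all genes without overlap in all 3 was not counted. The trait is not particular to Kcnj8, since the libraries of Aoc3, Cd248, Heyl and Myocd, read further below, overlapped in none of the 3 either. Kcnj8 lies at chr6:142564837-142571614 on the minus strand, next to Abcc9 at chr6:142587862-142702315. It encodes Kir6.1, the pore of the vascular KATP channel, which hyperpolarizes mural cells when it opens. Its normalized CPM were 101, 80.6 and 81.6 in CK, 71.6, 79.5 and 77.8 in DCM and 64.2, 66.2 and 63.4 in SPM. All DCM libraries lay under all CK libraries, by little for DCM replicate 2, and all SPM libraries lay under both. The log2 fold change was -0.20 ± 0.093 in DCM compared to CK (edgeR adjusted p = 0.201), and without CK replicate 1 it was -0.088. Kcnj8 fell by 0.24 ± 0.067 in SPM compared to DCM (adjusted p = 0.0380) and by 0.45 ± 0.089 in SPM compared to CK (adjusted p = 0.00818, 0.733 times the CK level). The call against CK was kept with each of the 6 libraries left out in turn, at adjusted p up to 0.0357, which was the value without SPM replicate 2. The call against DCM was kept in 1 of 6 such fits, without DCM replicate 1 (adjusted p = 0.0499 to 0.147 over the 6). The comparisons share libraries, so their values are not independent of each other.

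Abcc9 encodes SUR2, the regulatory subunit that pairs with Kir6.1 in mural cells and with Kir6.2 in cardiomyocytes, so its RNA in whole heart is not of mural cells alone. It had 390, 411 and 419.5 normalized CPM in CK, 395, 439 and 456 in DCM and 442, 461 and 479.7 in SPM, and of the 3 pairs of groups CK and SPM did not overlap. The log2 fold change in SPM compared to CK was 0.17 ± 0.058 (edgeR adjusted p = 0.0549) and without SPM replicate 2 it was 0.18 (adjusted p = 0.189). It was 0.080 ± 0.077 in DCM compared to CK.

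The other pore and receptor genes of KATP channels were set beside them. Kcnj11 (Kir6.2, the pore of cardiomyocytes) had 188, 176 and 195 normalized CPM in CK, 247, 260.3 and 248 in DCM and 242, 247 and 247 in SPM. Kcnj11 rose by 0.44 ± 0.070 on the log2 scale in DCM compared to CK (edgeR adjusted p = 0.00205) and by 0.39 ± 0.056 in SPM compared to CK (adjusted p = 0.00232, and 0.0200 without SPM replicate 2), below the fold change of 1.5 in both. Abcc8 (SUR1) had 47.4 to 59.9 normalized CPM in the 9 libraries and passed in no comparison of the main fit. After the correction for GC content described below, it passed in SPM compared to CK, at 0.23 (edgeR adjusted p = 0.0266). In FPKM, Kcnj8 stood to Kcnj11 as 0.664, 0.566 and 0.516 in CK, as 0.357, 0.377 and 0.387 in DCM and as 0.328, 0.330 and 0.316 in SPM, so the ratios of the 3 groups did not overlap. This ratio joins RNA of different cell types and is given with no test. It was not corrected for GC content, and how often such ratios separate the groups in other pairs of genes was not counted.

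Rgs5 lies at chr1:169655501-169695813 on the plus strand. It had 401, 449 and 441 normalized CPM in CK, 402, 407 and 454 in DCM and 485, 491 and 503 in SPM, with all SPM libraries above the others. The log2 fold change was -0.030 ± 0.079 in DCM compared to CK and 0.23 ± 0.072 in SPM compared to DCM (edgeR adjusted p = 0.0544). Rgs5 rose by 0.19 ± 0.061 in SPM compared to CK (adjusted p = 0.0487), a call that was kept in 0 of the 6 fits with 1 library left out (adjusted p = 0.0527 to 0.162). Without SPM replicate 2 the values were 0.23 against DCM and 0.20 against CK.

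Pdgfrb, at chr18:61045150-61085061 on the plus strand, encodes the receptor that recruits mural cells to growing vessels. It had 166, 142 and 138 normalized CPM in CK, 138, 150.1 and 136 in DCM and 123.4, 125.1 and 130.5 in SPM, with all SPM libraries below the others. Pdgfrb fell by 0.24 ± 0.076 on the log2 scale in SPM compared to CK (edgeR adjusted p = 0.0441, and 0.156 without SPM replicate 2), and the call was kept in 2 of the 6 fits with 1 library left out (CK replicate 3 or SPM replicate 3). Cspg4, at chr9:56865033-56899870 on the plus strand, had 43.5, 39.995 and 40.5 normalized CPM in CK, 37.7, 44.6 and 36.1 in DCM and 30.1, 34.96 and 35.9 in SPM, where SPM replicate 3 lay just under DCM replicate 3. Cspg4 fell by 0.30 ± 0.081 in SPM compared to CK (adjusted p = 0.0257, and 0.0822 without SPM replicate 2), and the call was kept in 1 of the 6 fits (without SPM replicate 3). Against DCM the log2 fold changes were -0.17 ± 0.067 for Pdgfrb and -0.23 ± 0.099 for Cspg4, and neither passed the test.

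**Figure D4:**
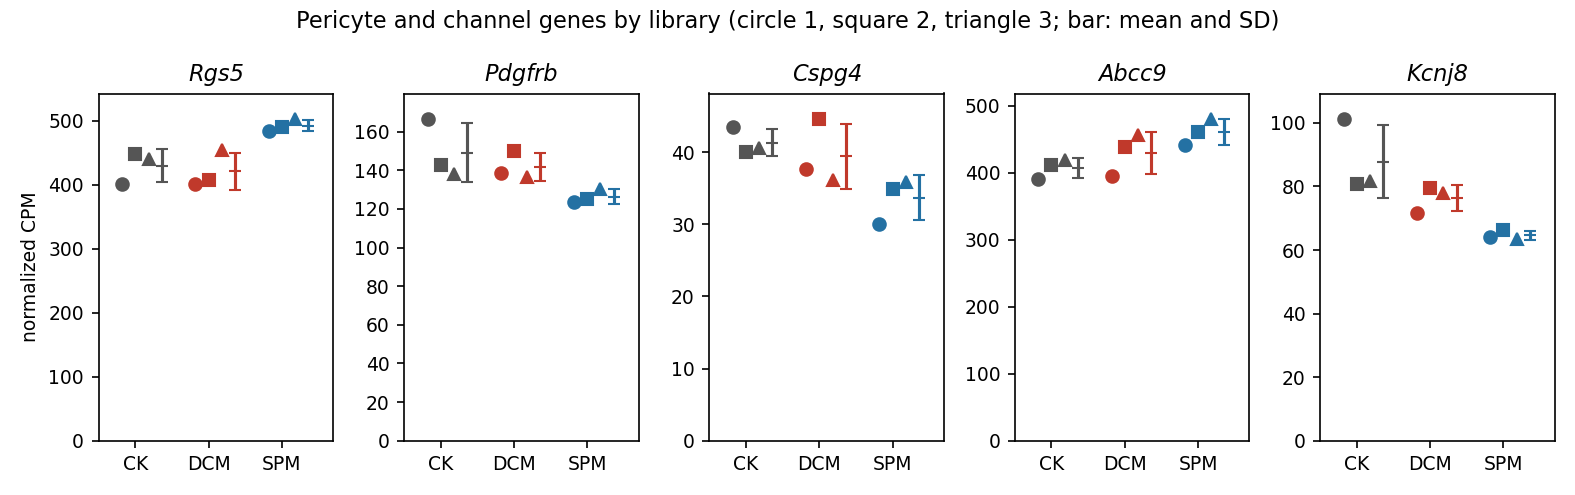
Normalized CPM of the 5 pericyte and channel genes in each library by group, with symbol shape for the replicate number and a bar for the group mean and SD (n = 3). The SPM libraries of Rgs5 lie between 485 and 503, above all others, and those of Kcnj8 between 63.4 and 66.2, below all others.

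The pericyte genes with higher values in SPM had a lower GC content than those with lower values. Over all genes tested the log2 fold change fell with GC content in SPM compared to DCM (Spearman rho -0.502 across 14484 genes) and in SPM compared to CK (-0.366 across 14564 genes), and was 0.0602 in DCM compared to CK (across 14392 genes), where genes are not independent replicates. The longest transcript has 41.1% GC in Rgs5 and 46.2% in Abcc9, and 53.3% in Kcnj8, 54.9% in Pdgfrb and 59.2% in Cspg4. Genes of the same GC content, in steps of 2 percentage points, had a median in SPM compared to DCM of 0.29 where Rgs5 had 0.23, of 0.082 where Abcc9 had 0.099, of -0.10 where Kcnj8 had -0.24, of -0.14 where Pdgfrb had -0.17 and of -0.20 where Cspg4 had -0.23. Rgs5, Abcc9, Pdgfrb and Cspg4 lay within the interquartile range of these genes, whereas Kcnj8 lay at its lower edge and all 5 contractile genes lay below it.

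With the GC trend of each library taken out, Rgs5 stood at -0.051 in SPM compared to DCM and at -0.060 in SPM compared to CK, on the other side of 0. Pdgfrb and Cspg4 stood at -0.028 and -0.029 against DCM and at -0.12 each against CK, with edgeR adjusted p of 0.207 and 0.264 in the latter. Abcc9 stood at 0.0037 and 0.099. Kcnj8 still passed the adjusted p against CK, at -0.34 (adjusted p = 0.0141), but not against DCM, at -0.13 (adjusted p = 0.238), and with SPM replicate 2 left out as well it passed in neither, at -0.36 (adjusted p = 0.0557) and -0.15. Of the contractile genes, Acta2 and Cnn1, at 49.6% and 51.4% GC, stood at -0.64 and -0.94 against DCM, Myh11 at -0.26, Tagln at -0.26 and Myl9, at 56.6% GC, at -0.18, where it had been at -0.35. The source of the GC trend was not tested.

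**Figure D5:**
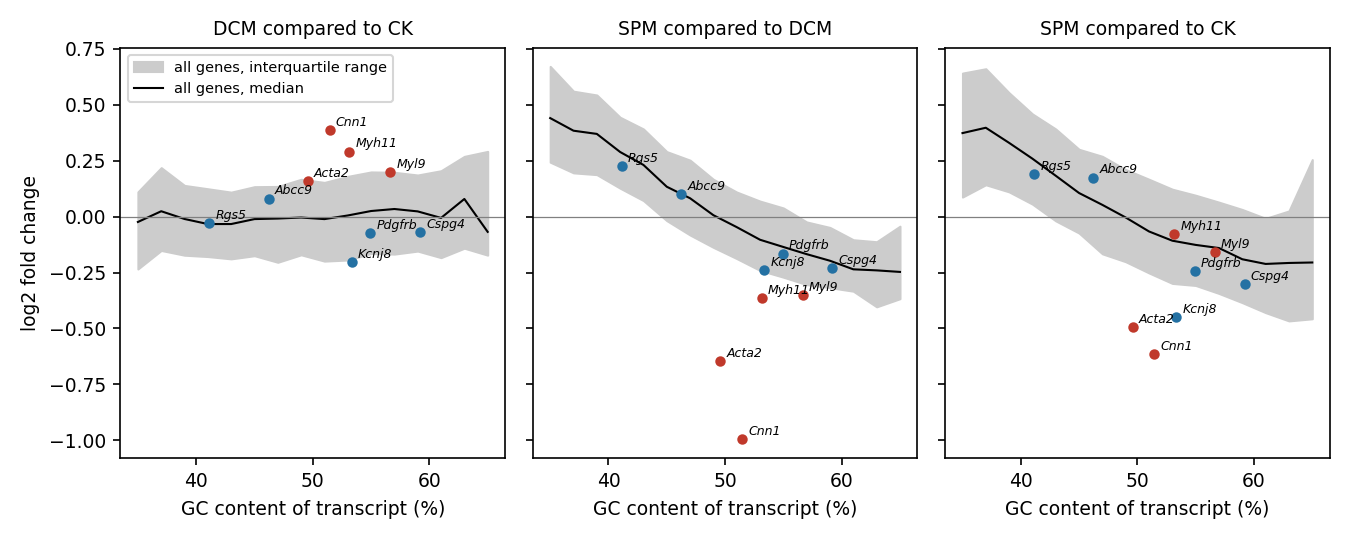
Log2 fold change against the GC content of the longest transcript in the 3 comparisons, with the median (line) and interquartile range (grey) of all genes in steps of 2 percentage points, contractile genes in red and pericyte genes in blue. Tagln is not drawn. In SPM compared to DCM, Rgs5 at 0.23 and Cspg4 at -0.23 lie near the line, while Acta2 at -0.65 and Cnn1 at -0.99 lie below the grey band.

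Further genes of the same cells were read from lists set beside the 10 genes. In these lists calls are at an adjusted p below 0.05 of edgeR. The counts of calls kept leave out calls that were gained, and the share kept over all genes was not counted. Over all genes, DEGs of SPM compared to DCM went from 521 to 56 without SPM replicate 2 and to 128 under the GC correction. Those of SPM compared to CK went from 1342 to 771 and to 1062. Of the 17 other smooth muscle genes, of the cytoskeleton and contraction, none passed in DCM compared to CK, where the median log2 fold change was 0.058. Against DCM, 1 rose in SPM (Ppp1r12a) and 4 fell (Aoc3, Csrp1, Ppp1r14a and Synpo2), with a median of -0.33, and the same genes rose and fell against CK, with a median of -0.16. The calls against CK were kept in 5 of 5 without SPM replicate 2 and in 5 of 5 under the GC correction, and those against DCM in 0 of 5 and in 1 of 5 (Synpo2). The DEG among them was Ppp1r14a (CPI-17, an inhibitor of myosin phosphatase), which fell by 0.77 ± 0.14 on the log2 scale in SPM compared to CK (edgeR adjusted p = 0.00591, and 0.0351 without SPM replicate 2). Its normalized CPM were 12.8, 11.5 and 9.54 in CK, 9.999, 8.39 and 9.05 in DCM and 7.39, 5.89 and 6.67 in SPM, so all SPM libraries were below the others. Csrp1 (an actin-associated LIM protein) fell by 0.43 ± 0.13 in SPM compared to DCM (adjusted p = 0.0450, and 0.170 at -0.29 under the GC correction) and by 0.37 ± 0.063 in SPM compared to CK (adjusted p = 0.00423). Smtn (smoothelin) had 123.3 to 147.1 normalized CPM and passed in no comparison.

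Of the 15 other pericyte genes 1 rose (Art3) and 3 fell (Rgs4, Cd248 and Ndufa4l2) in DCM compared to CK, 1 rose (Ebf1) and 2 fell (Colec11 and Notch3) in SPM compared to DCM, and 2 rose and 8 fell in SPM compared to CK. These calls were kept without SPM replicate 2 in 0 of 3 against DCM and in 4 of 10 against CK, and under the GC correction in 0 of 3 and in 6 of 10 (lost were Cox4i2, Higd1b, Notch3 and Vtn). The medians of the log2 fold change were -0.12, -0.11 and -0.31. DEGs were Rgs4, Cd248, Ndufa4l2 and Higd1b. Rgs4, a regulator of G-protein signalling like Rgs5, fell by 0.67 ± 0.10 in DCM compared to CK (edgeR adjusted p = 0.00145) and by 0.79 ± 0.089 in SPM compared to CK (adjusted p = 0.00112), with 24.04 to 26.98 normalized CPM over the CK, 14.3 to 17.9 over the DCM and 14.2 to 16.5 over the SPM libraries. Cd248 (endosialin, a surface protein of pericytes and fibroblasts) fell by 0.55 in DCM compared to CK and by 0.83 in SPM compared to CK (adjusted p = 0.00671 and 0.00164). Ndufa4l2 and Higd1b, which are enriched in pericytes, fell by 0.585 and 0.593 in SPM compared to CK, at adjusted p of 0.00609 and 0.0340. Without SPM replicate 2 the adjusted p was 0.00981 for Cd248, 0.0317 for Ndufa4l2 and 0.131 for Higd1b. Art3, the most abundant gene of this list, rose by 0.48 in DCM compared to CK and by 0.39 in SPM compared to CK. Its mean level was 258 FPKM, beside 30.4 for Mcam (CD146), the next in the list, and which cells its RNA came from was not tested. Mcam passed in no comparison.

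Among 9 transcription factors and co-factors of the smooth muscle programme 2 rose (Myocd and Gata6) and 2 fell (Foxs1 and Heyl) in DCM compared to CK, 1 rose (Mef2c) and 2 fell (Heyl and Klf4) in SPM compared to DCM, and 3 rose (Myocd, Gata6 and Mef2c) and 4 fell (Heyl, Foxs1, Mrtfa and Klf4) in SPM compared to CK. Leaving out SPM replicate 2 kept these calls in 0 of 3 against DCM and in 4 of 7 against CK, and so did the GC correction, in 0 of 3 and in 4 of 7 (lost were Klf4, Mef2c and Mrtfa). Myocd (myocardin, the co-factor of serum response factor in smooth and cardiac muscle) had 36.4, 42.4 and 43.5 normalized CPM in CK, 52.2, 49.1 and 58.4 in DCM and 59.7, 61.6 and 61.7 in SPM. Myocd rose by 0.39 ± 0.092 in DCM compared to CK (edgeR adjusted p = 0.0190) and by 0.575 ± 0.079 in SPM compared to CK (adjusted p = 0.00195, and 0.0136 without SPM replicate 2), just below a fold change of 1.5. The 5 contractile genes had their lowest group mean in SPM. None of the 5 passed the edgeR adjusted p in SPM compared to CK, and Myh11 stood at -0.078 there. Srf itself is not analysed here.

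Heyl, a target of Notch signalling in mural cells, had 57.9 to 62.4 normalized CPM over the CK, 44.1 to 50.7 over the DCM and 29.4 to 39.02 over the SPM libraries. It fell by 0.33 in DCM compared to CK, by 0.501 in SPM compared to DCM and by 0.84 in SPM compared to CK (edgeR adjusted p = 0.0178, 0.0157 and 0.00126), and without SPM replicate 2 the adjusted p against DCM was 0.0700. Foxs1, a forkhead factor of perivascular cells, fell by 0.93 and 1.34 in DCM and SPM compared to CK (adjusted p = 0.00962 and 0.00379). Klf4, which opposes the contractile programme, fell by 0.535 and 0.593 in SPM compared to DCM and to CK (adjusted p = 0.0431 and 0.0337, and without SPM replicate 2 0.117 and 0.0941). Gata6 rose by 0.36 in DCM compared to CK (adjusted p = 0.0493) and also in SPM compared to CK (adjusted p = 0.0103).

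Of 13 ligands and receptors that recruit mural cells or set their tone 1 rose (Agtr1a) in DCM compared to CK, 2 rose (Tgfbr1 and Angpt1) and 1 fell (Pdgfb, the ligand of Pdgfrb) in SPM compared to DCM, and 4 rose (Agtr1a, Tgfbr1, Angpt1 and Gucy1a1) and 3 fell (Npr1, Tgfb1 and Pdgfb) in SPM compared to CK. Of these calls, those kept without SPM replicate 2 were 0 of 3 against DCM and 1 of 7 against CK (Agtr1a), and those kept under the GC correction were 0 of 3 and 3 of 7 (Agtr1a, Angpt1 and Tgfb1). Angpt1 (angiopoietin-1, made by mural cells for the endothelial receptor Tie2) had 12.5, 20.1 and 21.5 normalized CPM in CK, 14.9, 13.4 and 21.6 in DCM and 28.6, 29.01 and 30.5 in SPM. Angpt1 rose by 0.82 ± 0.15 in SPM compared to DCM and by 0.697 ± 0.17 in SPM compared to CK (edgeR adjusted p = 0.0120 and 0.0195, and without SPM replicate 2 0.0520 and 0.0563). Under the GC correction Angpt1 stood at 0.499 (adjusted p = 0.0528) and 0.401 (adjusted p = 0.0379), below a fold change of 1.5 in both. Agtr1a (angiotensin receptor, which contracts mural cells) rose by 0.49 in DCM compared to CK and by 0.69 in SPM compared to CK (adjusted p = 0.00205 and 0.000787), and Eng (endoglin), the most abundant of the list, passed in no comparison.

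The actin genes that resemble Acta2 were read because reads can be shared among them. Actb and Actg1, the cytoplasmic actins, fell by 0.39 and 0.34 in DCM compared to CK (edgeR adjusted p = 0.0285 and 0.0187) and by 0.52 and 0.54 in SPM compared to CK (adjusted p = 0.00427 and 0.00276, and without SPM replicate 2 0.0237 and 0.0174). Actg2, the enteric smooth muscle actin, had 3.51, 3.74 and 5.35 normalized CPM in CK, 8.57, 3.32 and 2.87 in DCM and 5.14, 3.06 and 1.72 in SPM. Its highest and lowest libraries were those of Acta2, and it passed in no comparison. The cardiac and skeletal actins Actc1 and Acta1 and the light chains Myl12a and Myl12b, close to Myl9, are not analysed here, and how the counting split reads among such copies is not given in the sources used here, so the levels of Acta2 and Myl9 are uncertain to that extent.

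Genes of neighbouring cell types were read as a check. Of the 6 elastic fibre genes 2 rose (Lox and Fbln5) and 3 fell (Eln, Mfap4 and Fbn1) in DCM compared to CK, none passed in SPM compared to DCM, and 1 rose (Lox) and the same 3 fell in SPM compared to CK. Eln (elastin) fell by 0.61 and 0.87, Mfap4 by 0.83 and 1.16 and Fbn1 (fibrillin-1) by 0.58 and 0.59 in DCM and SPM compared to CK, while Lox (lysyl oxidase) rose by 0.83 and 1.07, and Mgp, the most abundant, passed in none. Their summed level spanned 687 to 767 CPM over CK, 548 to 645 over DCM and 524.5 to 596 over SPM. Of 6 genes of activated fibroblasts, which can make Acta2 themselves, 5 were tested, and Cthrc1, at 0 in some libraries, was not. Of the 2 calls in SPM compared to CK, 1 (Postn) was kept without SPM replicate 2 and under the GC correction. Postn (periostin) fell by 0.68 and 0.53 in DCM and SPM compared to CK, Ltbp2 fell by 0.71 in SPM compared to CK (edgeR adjusted p = 0.0418, and 0.104 without SPM replicate 2), and Comp passed in no comparison. Their summed level reached up to 122.5 CPM in CK, 98.1 in DCM and 102 in SPM.

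Of 7 fibroblast genes 5 fell in DCM compared to CK, 2 rose (Lum and Dcn) in SPM compared to DCM, and 2 rose (Dcn and Pdgfra) and 4 fell in SPM compared to CK. The collagens Col3a1, Col1a1 and Col1a2 fell by 1.54, 1.06 and 0.81 in DCM compared to CK, and Col1a1 and Col1a2 by 1.23 and 0.92 in SPM compared to CK, where Col3a1 fell too (edgeR adjusted p = 0.0027). Dcn (decorin) rose by 0.36 in SPM compared to DCM (edgeR adjusted p = 0.0199, and 0.0950 without SPM replicate 2), and stood at -0.036 under the GC correction. The fibroblast calls were kept without SPM replicate 2 in 0 of 2 against DCM and in 4 of 6 against CK, and under the GC correction in 0 of 2 and in 5 of 6. Of 10 endothelial genes 1 rose (Vwf) and 2 fell (Tek and Tie1) in DCM compared to CK, 2 fell (Cldn5 and Tie1) in SPM compared to DCM, and 1 rose (Vwf) and 3 fell (Cldn5, Tie1 and Cdh5) in SPM compared to CK. The endothelial calls were kept without SPM replicate 2 in 1 of 2 against DCM and in 3 of 4 against CK (lost were Tie1 and Cdh5), and under the GC correction in 1 of 2 and in 4 of 4. Cldn5 (claudin-5, of the junctions between endothelial cells) fell by 1.15 in SPM compared to DCM and by 1.29 in SPM compared to CK (adjusted p = 0.00786 and 0.00127, and without SPM replicate 2 0.0217 and 0.00756). Vwf (von Willebrand factor) rose by 0.79 and 0.65 in DCM and SPM compared to CK, and Pecam1, the most abundant, passed in no comparison. The summed endothelial level spanned 2288 to 2607 CPM over CK, 2265 to 2554 over DCM and 2094 to 2334 over SPM, with none of the 10 genes at 0.

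Macrophage genes had summed levels of 697 to 931 CPM over CK, 557 to 672 over DCM and 668 to 1164 over SPM, where SPM replicate 1 was highest. Of 8 such genes 5 fell in DCM compared to CK, 5 rose in SPM compared to DCM (0 of them past the adjusted p without SPM replicate 2 and 2 under the GC correction) and none passed in SPM compared to CK by edgeR. Adgre1 (F4/80) fell by 0.93 in DCM compared to CK and rose by 1.15 in SPM compared to DCM. Scn7a was the 1 of 5 Schwann cell genes that passed, and rose by 0.55 and 0.725 in SPM compared to DCM and to CK. The call of Scn7a against DCM was lost without SPM replicate 2 and under the GC correction (edgeR adjusted p = 0.0520 and 0.0631). Of 7 cardiomyocyte genes none passed in DCM compared to CK or in SPM compared to DCM, and 1 rose (Tnnt2) and 3 fell (Myh6, Mb and Tnni3) in SPM compared to CK, of which 0 were kept without SPM replicate 2 and 1 (Tnnt2) under the GC correction. Of the 6 atrial genes 3 fell (Myl4, Sln and Stard10) in DCM compared to CK, 1 rose (Nppa) in SPM compared to DCM, and 1 rose (Nppa) and 1 fell (Stard10) in SPM compared to CK. Nppa lost both calls without SPM replicate 2 (adjusted p = 0.0825 against DCM and 0.110 against CK), and Stard10 lost its call under the GC correction. None of the 4 mesothelial genes passed in a comparison. The part of these cell types in the mural values was not tested.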

How the data were processed

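RNA of 9 heart libraries was sequenced and grouped by the deposited titles (CK, DCM and SPM, 3 each). The authors deposited whole-number counts per gene, from reads filtered with fastp 0.18.0, and FPKM values, which equal the count over a gene length and the library total (largest relative deviation 6.84e-13). The submitters' processing notes list Bowtie 0.12.2 and the builds mm8 and mm9 with no role. The lengths match, within 0.5 bases, the longest GENCODE M21 (GRCm38) transcript for 97.62% of the 22844 identifiers found there, so symbols and coordinates are those of M21. The sources used here do not name the counting tool.

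Counts were tested in pairs of groups with edgeR 4.0.16 in R 4.3.3 (filterByExpr, TMM, quasi-likelihood test), adjusted over all genes tested. Normalized CPM are TMM-scaled over the 9 libraries, and FPKM served for levels between genes. With 3 against 3 libraries an exact permutation test cannot go below 0.1, so none was used. Depth was 29901300 to 39718680 counts per library.

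The genes and lists were chosen with earlier results of these data known. From each list, the 2 genes most abundant in FPKM and its DEGs (up to 5) are named, and always Myocd, Kcnj11, Abcc8 and the actins. Other listed genes are named after their values were seen, to spell out a count.

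Alternatives were DESeq2 1.42.0, RLE scaling, removal of mitochondrial genes, no filter on low counts, a filter at 1 CPM in 3 libraries, a joint fit of the 9 libraries, a replicate block, limma 3.58.1 on log2 of FPKM plus 0.1, a fold change of 1.3 or none, a GC correction (lowess span 0.3 per library, as an offset) and each library left out. The GC correction with SPM replicate 2 left out was chosen after seeing the data. The main edgeR fit was tested on simulated counts, and the alternative fits were not. Tables and plots were made in Python 3.11.15 (pandas 2.3.3, numpy 2.4.6, matplotlib 3.10.9).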

Additional observations from a re-analysis of the deposited data

How the results depend on the processing

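None of the 10 mural genes was a DEG by edgeR in any comparison. For DCM compared to CK this held under every alternative (0 to 0 with each library left out), with 1 gene (Myh11) past the adjusted p when low counts were not filtered. For SPM compared to DCM the number of DEGs was 2 when low counts were not filtered, 1 with a replicate block, 1 with no fold change limit and 0 to 2 with each library left out. For SPM compared to CK it was 1 at a fold change of 1.3, 4 with no limit and 0 to 1 with each library left out. Genes past the adjusted p for SPM compared to DCM numbered 1, and 2 by DESeq2, 3 with no filter, 2 with at least 1 CPM in 3 libraries, 6 with the block, 0 under the GC correction with or without SPM replicate 2 and 0 to 3 with each library left out. The 6 with the block were Acta2, Myh11, Cnn1, Myl9, Rgs5 and Kcnj8. The share of all genes past the adjusted p with the block was not counted. For SPM compared to CK they numbered 4, and 1 under the GC correction, 0 when SPM replicate 2 was left out too, and 1 to 3 with each library left out. Over all genes that passed the filter, libraries of the same number did not deviate together (correlations from -0.0746 to 0.2046, others from -0.2843 to 0.2175). Acta2, Myh11, Cnn1 and Myl9, however, fell from replicate 1 to replicate 3 in both DCM and SPM. Such correlations cannot settle whether the replicate numbers pair animals, and that was not tested.

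All DEGs of SPM compared to DCM numbered 521, and 128 under the GC correction, 0 when SPM replicate 2 was left out too, 280 without DCM replicate 1, 73 without DCM replicate 2, 56 without SPM replicate 2, 791 without SPM replicate 3, 1299 at a fold change of 1.3 and 2410 with no limit. Those of SPM compared to CK numbered 1342, and 771 without SPM replicate 2, 598 with the GC correction in addition, 2532 at a fold change of 1.3 and 3989 with no limit. Those of DCM compared to CK numbered 625, and 1100 at 1.3 and 1497 with no limit.

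Some log2 fold changes changed sign. With each library left out, those of DCM compared to CK spanned -0.21 to 0.41 for Acta2, -0.16 to 0.41 for Tagln, -0.19 to 0.94 for Cnn1, -0.033 to 0.39 for Myl9, -0.081 to 0.0081 for Rgs5, -0.12 to 0.015 for Pdgfrb and -0.43 to 0.52 for Actg2, those of SPM compared to DCM -1.06 to 0.091 for Actg2, and those of SPM compared to CK -0.40 to 0.042 for Tagln and -0.20 to 0.14 for Myh11. With limma, Abcc9 and Actg2 stood at -0.0124 each in DCM compared to CK and Abcc8 at -0.021 in SPM compared to CK. The GC correction gave Rgs5 -0.051, Kcnj11 0.13 and Dcn -0.036 against DCM, and Rgs5 -0.060, Dcn -0.072 and Myh11 0.016 against CK. With SPM replicate 2 left out as well, it gave Rgs5 -0.049, Kcnj11 0.13 and Dcn -0.031 against DCM, and Rgs5 -0.057, Dcn -0.070, Myh11 0.0045 and Tagln 0.0024 against CK. The causes were not tested. Of 466 values of the 10 genes under the alternatives, by the adjusted p alone 46 stayed past the threshold, 34 no longer passed and 21 newly passed. As DEGs, of which the 10 genes held none, 7 of their values gained a call, and of the companion genes' values 1221 kept direction and call, 101 lost a call and 31 gained one. Depth limits Tagln, at 10 to 21 counts.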
